A study of Mus musculus with 2 samples.

Results

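Cohesin is a ring-shaped protein complex that holds sister chromatids together from DNA replication until anaphase and that also forms loops in interphase chromatin. *Smc1a*, *Smc3* and *Rad21* encode the ring, and *Stag1* and *Stag2* encode alternative subunits that bind it. *Nipbl* encodes the loader, *Wapl* and *Pds5b* encode factors that bind the loaded ring, and *Wapl* releases it from chromatin. *Esco2*, an acetyltransferase that modifies SMC3 during S phase, and *Cdca5*, which encodes the cohesion-protecting factor sororin, act in establishing cohesion. These 10 genes, chosen by symbol, are all among the 10666 genes of the expression table, and were read here along the cell-cycle position of each cell.

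The cells were neurospheres, which are spheres of dividing neural progenitors that grow in suspension. They came from the dorsal telencephalon of wild-type C57BL/6 mice at embryonic day 14.5, and the medium held EGF and bFGF at 10 ng/ml each. There were 2 replicate cultures of this single condition, with 5748 cells in culture 1 and 7057 in culture 2, and no treated, mutant or control group. The labels give no number of embryos behind a culture. No p-value is therefore given, since cells of 1 culture are not replicates, and each value is given in both cultures so that their difference shows the spread. The median total was 19477 unique molecular identifiers (UMIs, counted molecules) per cell in culture 1 and 14637 in culture 2, and 48 cell barcodes were shared by the cultures. The progenitor genes *Fabp7* and *Nes* were nonzero in 100% and 93.3% of cells of culture 1, and in at least 89.8% of cells of culture 2. *Sox2* was not analysed here. *Pax6*, a marker of dorsal progenitors, was nonzero in only 21.1% and 23.1% of cells, and *Olig2*, of ventral and oligodendrocyte progenitors, in 97.3% and 91.9%.

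The position is an angle from 0 to 2π around a 2-dimensional cell-cycle embedding. Cells in G1 or out of the cycle lie around 0 and 2π, S phase begins near 0.5π, G2 and mitosis near 1π, and mid-mitosis lies near 1.5π. Cells were divided into 8 classes, each 0.25π wide. The deposited values are linear and normalized for the depth of each cell, and were also read as log2(value + 1). The share of a gene's variance over cells that 2 harmonics of the position account for is called R² here, and a gene was counted as varying with position where its R² was at least 0.05 in both cultures.

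Of the 10 cohesin genes, 5 varied with position by this rule (*Esco2*, *Rad21*, *Cdca5*, *Smc1a* and *Smc3*), against 428 of all 10666 genes, or 4.01%. Among the 6650 genes that were nonzero in at least as large a share of cells as the least detected cohesin gene, 365 did so, or 5.49%. The R² was 0.359 in culture 1 and 0.338 in culture 2 for *Esco2*, and 0.286 and 0.265 for *Rad21*. It was 0.226 and 0.179 for *Cdca5*, 0.211 and 0.119 for *Smc1a*, and 0.136 and 0.0957 for *Smc3*. By the lower of both values *Esco2* stood at rank 57 of all genes, *Rad21* at 95, *Cdca5* at 152, *Smc1a* at 214 and *Smc3* at 253. The varying genes thus include the whole ring and both genes of cohesion establishment, while the loader, both factors on the loaded ring and both alternative subunits stayed below 0.05.

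The nearest values below the threshold were those of *Pds5b* (0.0402 and 0.0414), *Stag1* (0.0465 and 0.0398) and *Stag2* (0.0425 and 0.0343). *Wapl* had an R² of 0.0168 and 0.0170, and *Nipbl*, the lowest of the 10 by its lower value, had 0.0129 and 0.0232. The median over all genes was 0.00183, and that over the 10 cohesin genes was 0.0680. Detection did not order the genes in the same way. *Nipbl* was nonzero in 74.2% and 67.0% of cells, and *Cdca5*, the least detected, in 24.8% and 10.97%.

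The deposited position may itself have drawn on cohesin genes, so a second position was computed in each culture from 80 S and G2/M genes that include no cohesin, condensin or MCM gene. It had a circular correlation with the deposited position of 0.927 in culture 1 and 0.890 in culture 2. Along it the same 5 cohesin genes passed 0.05, against 415 of all genes, or 3.89%. The R² of *Esco2* was 0.370 and 0.307 along this position, that of *Rad21* 0.276 and 0.257, and that of *Smc3* 0.131 and 0.0911.

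**Figure D1:**
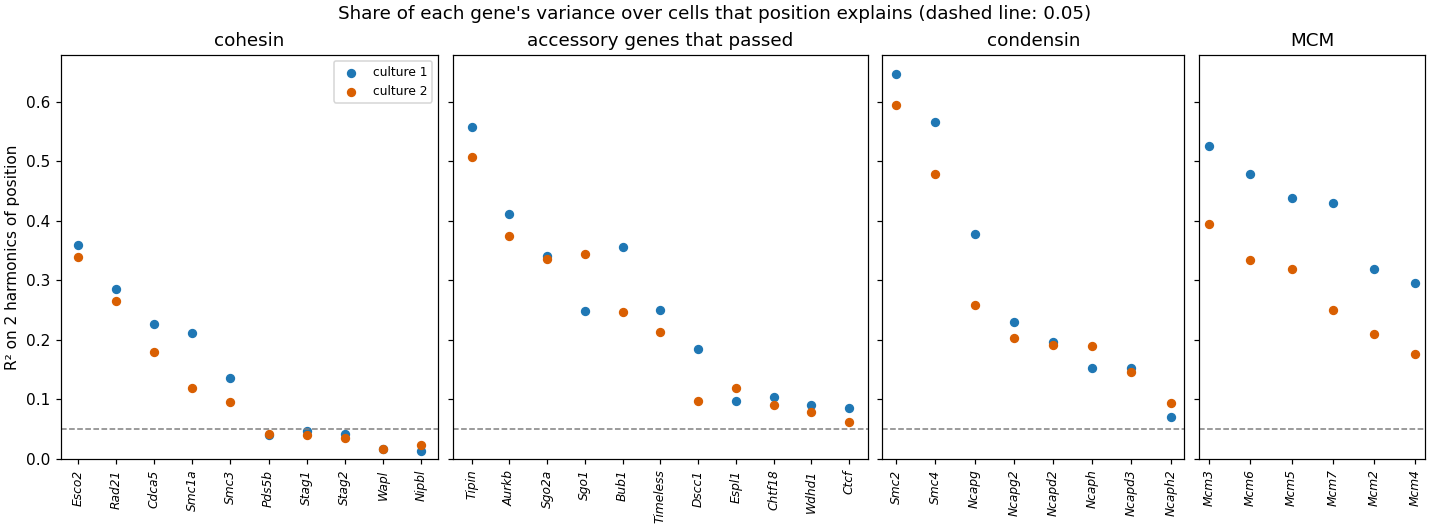
R² of log2(value + 1) on 2 harmonics of position for the 10 cohesin genes, the 11 accessory genes that passed, 8 condensin genes and 6 MCM genes, with 1 point for each culture and a dashed line at 0.05. *Esco2* and *Rad21* are the highest cohesin genes at 0.265 to 0.359, and 5 cohesin genes lie under the line in both cultures.

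Coordinates given here are those of GENCODE vM21 in GRCm38. *Esco2* is at chr14:65819038-65833994 on the minus strand, *Cdca5* at chr19:6084983-6091777 on the plus strand and *Rad21* at chr15:51962240-51991747 on the minus strand. *Smc3* is at chr19:53600398-53645833 and *Smc1a* at chrX:152016428-152062694, both on the plus strand. *Stag1* is at chr9:100597798-100959375 on the plus strand, and *Stag2* lies on the X chromosome as *Smc1a* does.

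Bases upstream of the start were read from the RefSeq promoter table (GRCm38.p6), which held *Smc1a*, *Smc3*, *Stag1*, *Wapl*, *Pds5b* and *Cdca5*. They were searched in 250 bases on both strands for 3 motifs of cell-cycle promoters: the CHR words TTTGAA and TTCGAA, the E2F words TTTCCCGC, TTTCGCGC, TTTGGCGC and TTTGCCGC, and CCAAT. Of all 32851 promoters of this length in the table, 17.1% hold a CHR word, 1.86% an E2F word and 33.8% CCAAT. The *Cdca5* window has 2 CHR words, at -17 to -12 and -9 to -4 from the start, and *Pds5b* has 1. The *Stag1* window has 1 E2F word, at -17 to -10, and CCAAT on the opposite strand. CCAAT is also in the windows of *Smc1a* and *Pds5b*, and in 2 places in that of *Wapl*. *Smc3* has none of these words, although it varied with position. The last 30 bases before the start are shown for *Cdca5* (chr19:6085067-6085096) and *Smc1a* (chrX:152016398-152016427), and all 250 for *Smc3* (chr19:53600146-53600395) and *Stag1* (chr9:100643198-100643447), since these differ in the words they hold and in their profiles. All 4 are on the plus strand, and capitals mark the words searched for.
Cdca5: gcaaggcgggcaaTTTGAAcgTTTGAAgca
Smc1a: aggaaatcgtgATTGGcttggacttattat
Smc3: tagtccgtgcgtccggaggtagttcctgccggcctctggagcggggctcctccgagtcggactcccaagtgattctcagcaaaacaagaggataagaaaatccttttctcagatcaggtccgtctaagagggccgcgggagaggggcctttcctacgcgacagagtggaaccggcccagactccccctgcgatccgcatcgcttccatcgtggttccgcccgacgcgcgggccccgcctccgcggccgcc
Stag1: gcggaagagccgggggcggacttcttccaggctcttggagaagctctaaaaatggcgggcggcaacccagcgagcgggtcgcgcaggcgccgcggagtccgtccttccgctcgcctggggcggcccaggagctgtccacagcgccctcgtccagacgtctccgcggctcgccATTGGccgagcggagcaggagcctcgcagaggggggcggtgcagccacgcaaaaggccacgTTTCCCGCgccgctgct
The GENCODE starts of *Cdca5*, *Pds5b* and *Stag1* lie upstream of the RefSeq starts used here, and the *Stag1* window lies far inside the gene as given above, in none of its annotated exons. Exons of *Cdca5* and *Zfpl1* cover 224 of the 250 bases of the *Cdca5* window, and exons of *Pds5b* cover 88 bases of its own. Exons of other genes cover 118 bases of the *Smc1a* window (*Ribc1*) and 86 of that of *Wapl* (*5830448L01Rik*). A matching word is a description of these letters, and its part in any profile was not tested.

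*Esco2* had the largest ratio of its highest class to the G1 class. Its mean value was 0.0147 in culture 1 and 0.00888 in culture 2 between 1.75π and 2π, the most populated class, and 1.03 and 1.33 between 0.75π and 1π, its highest class. These ratios of 70.2 and 150 rest on few nonzero cells in the G1 class, 36 of 1789 in culture 1 and 23 of 3149 in culture 2. The share of cells with a nonzero *Esco2* value makes the same point without a ratio. It was 2.01% (exact 95% interval 1.41% to 2.78%) and 0.730% (0.464% to 1.09%) in the G1 class, against 74.3% (71.5% to 76.99%) and 65.0% (60.9% to 69.0%) between 0.75π and 1π. On the way up the share was 13.6% and 8.58% between 0.25π and 0.5π, and 43.6% and 35.1% between 0.5π and 0.75π. On the way down it was 53.7% and 42.0% between 1π and 1.25π, and then 1.18% of 85 cells (0.0298% to 6.38%) and 5.02% of 279 cells (2.77% to 8.28%) between 1.25π and 1.5π. Median total UMIs were 18437 and 13991 in the G1 class and 22966.5 and 17148 between 0.75π and 1π. In cells with 12000 to 18000 total UMIs the shares were 2.23% and 0.715% in the G1 class and 64.7% and 64.5% between 0.75π and 1π. *Esco2* was therefore seen in most cells between 0.75π and 1π, still in many up to 1.25π, and in few after 1.25π or in G1.

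*Cdca5*, which protects cohesion that *Esco2* has helped to establish, followed the same course at a lower level. Its mean value was 0.581 and 0.666 between 0.75π and 1π, and 0.0268 and 0.0205 in the G1 class, a ratio of 21.6 and 32.5. It was nonzero in 54.8% and 37.2% of cells at its highest class, and in 3.30% and 1.24% of cells in the G1 class. Between 1.25π and 1.5π it was nonzero in 0 of 85 cells of culture 1, for which the exact interval reaches 4.25% (3 counts of 85 would be 3.53%), and in 4.66% of cells of culture 2. Intervals and limits cover counting error only. Over 16 narrower classes, the mean profiles of *Esco2* and *Cdca5* had a correlation of 0.977 in culture 1 and 0.980 in culture 2, the closest of the 10 pairs among the 5 varying genes. The points of these correlations share the same cells and libraries.

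*Rad21*, the kleisin that closes the ring and that separase cuts at anaphase, peaked later and was still high between 1.25π and 1.5π. Its mean value was 0.637 in culture 1 and 0.546 in culture 2 in the G1 class, and 0.827 and 0.704 between 0.25π and 0.5π. It reached 1.65 and 1.55 between 0.75π and 1π, and 2.58 and 2.49 between 1π and 1.25π, so the highest class exceeded the G1 class 4.05-fold and 4.56-fold. Between 1.25π and 1.5π the mean was still 2.17 in both cultures, or 84.0% and 87.1% of the highest class. Cells of that class had fewer total UMIs, and on values multiplied back by total UMIs it stood at 53.3% and 62.8% of the highest class. *Esco2* stood at 5.75% of its highest class there in culture 2, and was nonzero in 1 of 85 cells in culture 1. The share of cells with a nonzero *Rad21* value was 45.9% and 32.6% in the G1 class, 93.3% and 85.1% between 1π and 1.25π, and 82.4% and 76.7% in the class after that.

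**Figure D2:**
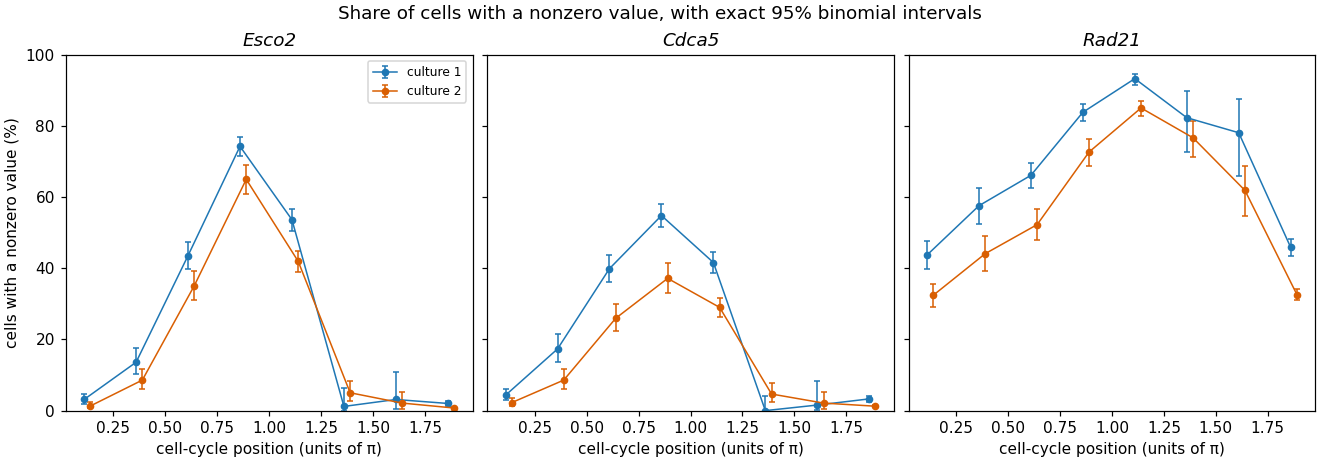
Share of cells with a nonzero value (y axis, %) for *Esco2*, *Cdca5* and *Rad21* in 8 classes of cell-cycle position (x axis, units of π), with exact 95% binomial intervals, by culture. *Esco2* and *Cdca5* are at most 5.02% in both cultures between 1.25π and 1.5π, where *Rad21* is at 82.4% and 76.7%.

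*Smc1a* and *Smc3* encode the paired arms of the ring, yet their maxima lay apart. *Smc3* was highest between 0.75π and 1π, at a mean value of 3.18 and 3.40, against 1.68 in both cultures in the G1 class, a ratio of 1.90 and 2.02. It was already at 3.14 and 3.16 between 0.5π and 0.75π, and had come down to 2.76 and 2.57 between 1π and 1.25π. *Smc1a* was at 2.59 and 2.20 between 0.5π and 0.75π, and highest between 1π and 1.25π, at 3.52 and 3.04. Against 1.43 and 1.36 in the G1 class its highest class was 2.46-fold and 2.24-fold higher. Between 1π and 1.25π *Smc3* was thus lower, and *Smc1a* higher, than between 0.75π and 1π in both cultures. The ratio of these classes was 0.867 and 0.755 for *Smc3* and 1.13 in each culture for *Smc1a*. Over the 16 narrower classes the profile of *Smc3* correlated at only 0.0246 and 0.186 with that of *Rad21*, the lowest of the 10 pairs.

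The maxima of periodic loess lines, local regressions that close on themselves at 2π, put the 5 varying genes in order. The line of *Smc3* peaked at 0.765π (culture 1) and 0.7π (culture 2). That of *Cdca5* peaked at 0.865π and 0.9π and that of *Esco2* at 0.9π and 0.91π, so this pair was not separated beyond the difference between the cultures. *Smc1a* followed at 1.105π and 1.1π, and *Rad21* came last at 1.165π and 1.255π. The values of *Smc3*, of the *Cdca5* and *Esco2* pair, of *Smc1a* and of *Rad21* did not overlap between neighbours in this order. Over 9 settings of the lines, the position without cohesin genes among them, this order was kept in 16 of 18 fits of 1 culture. In culture 1 it was lost at a span of 0.1, where *Smc3* peaked at 0.96π after *Cdca5* and *Esco2* (0.91π and 0.95π), and at a span of 0.5, where *Esco2* and *Smc1a* both peaked at 1.01π. The maxima themselves depend on the span of the line, as the broad top of *Smc3* shows: its mean over cultures was 0.732π at a span of 0.3, 0.885π at 0.1 and 0.890π at 0.5.

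**Figure D3:**
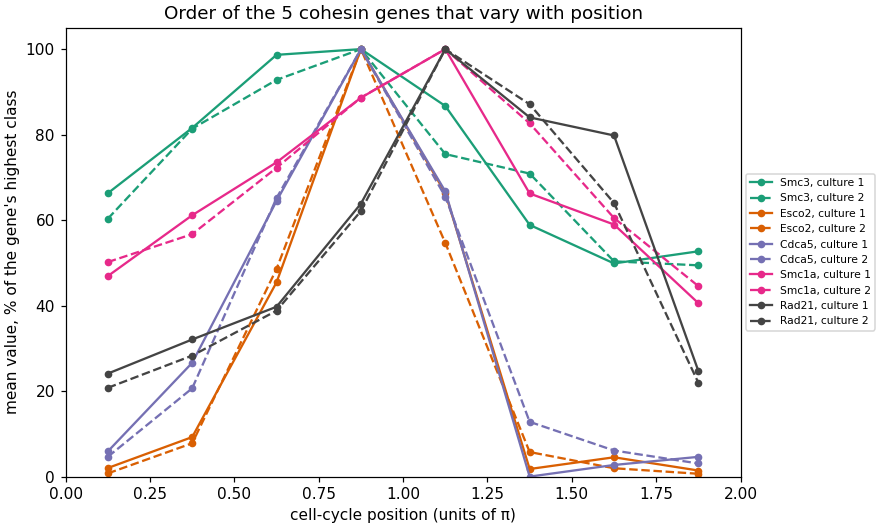
Mean value in each of 8 position classes as a percentage of the gene's highest class (y axis) against cell-cycle position (x axis, units of π), for the 5 varying cohesin genes, with solid lines for culture 1 and dashed lines for culture 2. *Smc3*, *Esco2* and *Cdca5* are highest between 0.75π and 1π, *Smc1a* and *Rad21* between 1π and 1.25π, and *Rad21* is at 84.0% and 87.1% in the next class.

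The 5 genes below the threshold had smaller ranges of class means on the log2(value + 1) scale than the 5 varying genes. The largest was 0.503 and 0.464 for *Stag2*, against a smallest of 0.542 and 0.511 for *Cdca5* among the varying genes. By the ratio of the highest class to the G1 class they were not all shallower. *Pds5b* and *Stag1* exceeded *Smc3* (1.90 and 2.02) by that ratio in both cultures. They were also nonzero in fewer cells, 43.8% and 26.3% for *Pds5b* and 43.5% and 37.3% for *Stag1*, against 87.9% and 76.5% for *Smc3*. *Pds5b*, which encodes a scaffold for the factors on the ring, was at 0.326 and 0.287 in the G1 class and 0.686 and 0.689 between 0.75π and 1π, 2.11-fold and 2.40-fold higher. *Nipbl* ranged least of the 10 by this ratio in culture 1, from 1.38 in the G1 class to 1.75 between 1π and 1.25π, or 1.27-fold, and from 1.23 to 1.79, or 1.45-fold, in culture 2. *Wapl* was 1.34-fold and 1.32-fold higher in its highest class than in the G1 class. Loading and release genes thus stayed within 1.45-fold of the G1 level in their highest class. For *Nipbl* the range of class means on the log2(value + 1) scale was 0.24 in culture 1 and 0.42 in culture 2. The largest gap between the cultures in any class was 0.32, between 1.5π and 1.75π. The ranges of *Wapl*, 0.38 and 0.32, exceeded its largest gap of 0.13. Without the sparse classes between 1.25π and 1.75π its ranges were 0.25 and 0.24. The corresponding ranges of *Rad21*, 1.14 and 1.15, compare with a largest gap of 0.23.

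**Figure D4:**
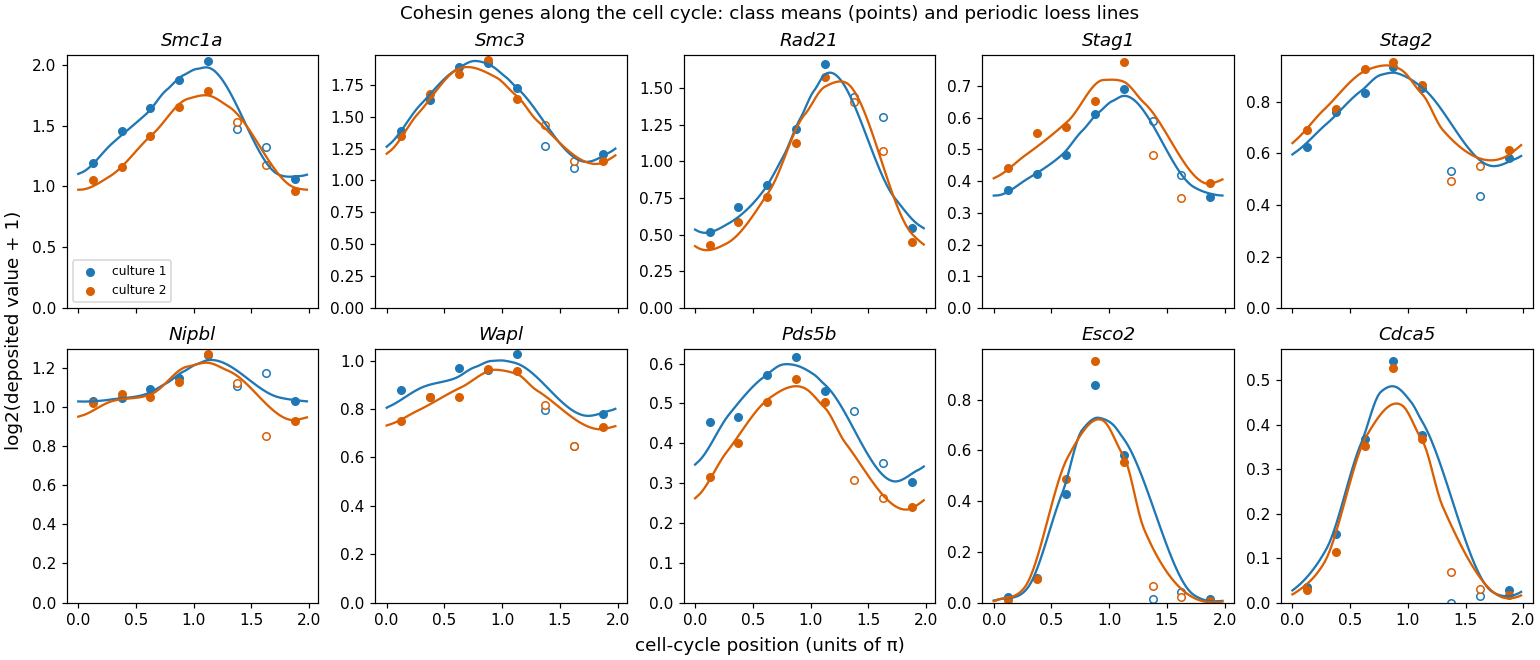
Mean log2(value + 1) in 8 position classes (points) and periodic loess lines for the 10 cohesin genes against cell-cycle position (units of π), by culture, with open points for classes of under 300 cells and a separate y axis from 0 for each gene. *Esco2* and *Cdca5* return to near 0 outside S phase and G2. Class means range over 0.24 and 0.42 for *Nipbl*, and over 0.38 and 0.32 for *Wapl*.

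*Stag1* and *Stag2*, which define alternative forms of cohesin, each ranged by up to 2.09-fold over the G1 class but did not peak together. *Stag1* was highest between 1π and 1.25π, at 0.799 and 0.996, against 0.400 and 0.477 in the G1 class. *Stag2* was highest between 0.75π and 1π, at 1.15 and 1.26, against 0.689 and 0.772. The log2 ratio of mean *Stag1* to mean *Stag2* was -0.70 and -0.55 over all cells, so *Stag2* had the higher value in both cultures. These are 3′ tags, counted once per molecule and not proportional to transcript length. The ratio was -0.79 and -0.70 in the G1 class and -0.97 and -0.81 between 0.5π and 0.75π. It was closer to 0 between 1π and 1.25π, at -0.38 and -0.16, and between 1.25π and 1.5π, at 0.11 and -0.03, where only 85 and 279 cells lay. Between 1.5π and 1.75π, a class of 64 and 189 cells, the cultures differed, at -0.11 and -0.66. From the G1 class to the class between 1π and 1.25π it therefore moved towards *Stag1* in both cultures, by more than the cultures differed in either class.

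**Figure D5:**
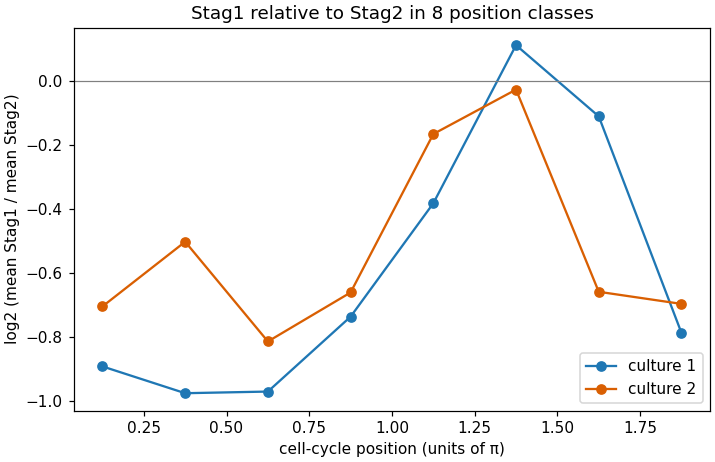
Log2 ratio of mean *Stag1* to mean *Stag2* (y axis) in 8 classes of cell-cycle position (x axis, units of π), with 1 line for each culture. The ratio lies between -0.97 and -0.50 up to 1π and between -0.38 and 0.11 from 1π to 1.5π in both cultures. Between 1.5π and 1.75π the cultures lie apart, at -0.11 and -0.66.

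Levels of different genes can be set side by side within a culture, as 3′ tags. The deposited values also carry a factor for each gene and culture, which lies between 0.852 and 1.25 for these genes, and which was estimated and removed for this ordering. *Smc3* had the highest mean value, 2.69 in culture 1 and 1.95 in culture 2, ahead of *Smc1a* (2.66 and 1.64) and *Nipbl* (both 1.42). *Rad21* (1.33 and 0.991) and *Wapl* (1.13 and 1.003) followed and exchanged places between the cultures. *Stag2* had 0.905 and 0.888, *Stag1* 0.566 and 0.592, and *Pds5b* 0.553 and 0.377. *Esco2* (0.433 and 0.235) and *Cdca5* (0.282 and 0.142) came last. Apart from *Rad21* and *Wapl* the order was the same in both cultures, although *Smc3* and *Smc1a* in culture 1, and *Stag1* and *Pds5b* in culture 1, stood within a few hundredths of each other.

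Cell-cycle stages assigned by Seurat from S and G2/M gene lists, which hold none of the 10 genes, gave a coarser view. The mean value of *Rad21* was 0.660 in G1, 1.12 in S and 2.40 in G2M in culture 1, and 0.564, 0.969 and 2.29 in culture 2. *Smc3* was higher in S than in G2M in both cultures, at 2.98 against 2.83 and 3.04 against 2.54, and *Smc1a* was higher in G2M, at 3.47 against 2.54 and 2.87 against 2.09. *Esco2* was at 0.0181 and 0.0104 in G1, 0.522 and 0.575 in S, and 0.781 and 0.663 in G2M, its highest in both cultures. *Cdca5* was higher in G2M than in S in culture 1 (0.431 against 0.366) and near equal in culture 2 (0.375 and 0.377). The 5-stage scheme of SchwabeCC left 2451 and 3151 cells without a stage. In it *Esco2* was highest in S (0.977 and 0.965), not in G2M as by Seurat, and *Rad21* in G2.M (1.63 and 1.53). The SchwabeCC scheme also assigns stages from gene lists, and whether those hold any of the 10 genes was not checked here. Its stage maxima may therefore follow in part from the assignment. *Smc1a* was highest in S in culture 1 and in G2.M in culture 2 by that scheme, so its stage was not the same in the cultures.

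Total UMIs per cell moved with position. The class median was highest between 0.75π and 1π in culture 1, at 22966.5, and between 1π and 1.25π in culture 2, at 17813, and lowest between 1.25π and 1.5π, at 14111 and 11882. The deposited values are divided by a factor for the depth of each cell, and shares of nonzero cells still move with depth. Where values were multiplied back by the cell's total UMIs, the highest class of *Rad21* was 4.91-fold and 5.59-fold over the G1 class, that of *Smc1a* 3.07-fold and 2.80-fold, and that of *Nipbl* 1.58-fold and 1.85-fold. On that scale *Stag1*, *Stag2* and *Pds5b* also passed 0.05, which makes 8 of 10, against 588 of all genes, or 5.51%. In cells with 12000 to 18000 total UMIs only, 5 passed, against 406 of all genes, or 3.81%. Between 1.25π and 1.75π the classes hold 64 to 279 cells, and values there are the least certain.

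Markers of other cell types were present at unequal shares. Astroglial *Aldh1l1* was nonzero in 43.2% and 28.8% of cells and *S100b* in 18.6% and 6.65%. *Cspg4* of oligodendrocyte progenitors was nonzero in 11.8% and 13.7%. *Dcx* of neuroblasts, or *Pdgfra* or *Sox10* of the oligodendrocyte lineage, was nonzero in 16.2% of cells of culture 1 and in 3.49% of culture 2, and by class between 10.6% and 22.3% in culture 1 and between 2.51% and 5.15% in culture 2. Without the cells with nonzero *Dcx*, *Pdgfra* or *Sox10* the same count of 5 cohesin genes passed, against 428 of all genes, or 4.01%. The lower R² was then 0.342 for *Esco2* and 0.263 for *Rad21*. A nonzero *Aldh1l1*, *S100b* or *Cspg4* value did not exclude a cell. No marker gene of microglia, endothelial, erythroid or mesenchymal cells from the list used was analysed here.

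Other genes of the cohesin cycle were taken from a list of 26, of which 21 were in the table and *Haspin*, *Plk1*, *Smc1b*, *Rad21l* and *Rec8* were not analysed here. By the same rule 11 of the 21 varied with position, against 4.01% of all genes. Of these, 5 act at the replication fork, where cohesion is established. *Tipin* had the highest R² (0.557 and 0.507), ahead of its partner *Timeless* (0.249 and 0.213), and *Dscc1*, *Chtf18* and *Wdhd1* lay between 0.0793 and 0.185. The loess lines of these 5 genes, fitted at a span of 0.3 only, were highest between 0.595π and 0.805π, ahead of *Esco2* in both cultures. By class the order was less clear. *Dscc1* and *Chtf18* in both cultures, and *Tipin* in culture 2, were highest between 0.75π and 1π, as *Esco2* was. Another 5 act on cohesin in mitosis. *Sgo1* (0.248 and 0.344) and *Sgo2a* (0.341 and 0.335) encode the shugoshins that protect cohesin at centromeres, *Espl1* (0.0971 and 0.119) encodes separase, and *Aurkb* (0.411 and 0.373) and *Bub1* (0.356 and 0.247) encode mitotic kinases. Their lines, fitted at a span of 0.3 only, were highest between 0.95π and 1.135π, earlier than that of *Rad21*. In culture 1 this gap was small, with *Bub1* at 1.135π and *Rad21* at 1.165π. At a span of 0.5 the line of *Rad21* itself peaked at 1.04π in that culture. *Ctcf*, whose product stops cohesin on chromatin, had an R² of 0.0853 and 0.0622 with a highest point at 1.11π and 1.005π. Of the 10 genes that did not pass, *Ddx11* (lower R² of 0.0264) and *Pds5a* (0.0163) were the highest.

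Condensin, the related complex that compacts mitotic chromosomes, passed in 8 of 8 genes, with lower R² values from 0.0705 for *Ncaph2* to 0.595 for *Smc2* and a median of 0.197. The MCM helicase genes passed in 6 of 6, from 0.176 for *Mcm4* to 0.394 for *Mcm3*, with a median of 0.284. Against these, cohesin passed in 5 of 10 with a median of 0.0680, the accessory list in 11 of 21 with a median of 0.0622, and all genes in 4.01% with a median of 0.00183. The paper ranks *Smc2* and *Smc4* high among the weights of its embedding, so their R² on the deposited position may not be independent of it. Along the position computed without the cohesin, accessory, condensin and MCM genes, *Smc2* had an R² of 0.635 and 0.545. Along it 8 condensin, 6 MCM and 11 accessory genes passed. All these are counts over the genes of each list, with no test of the difference.

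Among the 428 varying genes, those with the profile most like each cohesin gene over 16 classes were read by the lower of the correlations in the cultures. For *Esco2* they were *Fbxo5*, an inhibitor of the anaphase-promoting complex (0.979), *Cdca5* (0.977), *Gen1* (0.967), *Tk1* (0.963) and *Neil3* (0.962). *Cdca5* had *Fbxo5* (0.980), *Esco2* (0.977), *Gen1* (0.970), *BC030867* (0.963) and *Cenpu* (0.958). The nearest to *Rad21* were *Rangap1* (0.973), *Racgap1* (0.969), *Nucks1* (0.967), *Cdca8* (0.959) and *Lockd* (0.953). *Smc3* was closest to *Dnmt1*, the maintenance DNA methyltransferase (0.973), then *Mthfd2* (0.970), *Rbmx2* (0.969), *Eri1* (0.964) and *Mrpl18* (0.964). *Smc1a* was closest to *Cenpn* (0.943), *Cdk1*, the mitotic cyclin-dependent kinase (0.941), *Cmc2* (0.934), *Spag5* (0.934) and *Tubb5* (0.934). No gene is shared between the lists of *Smc1a*, *Smc3* and *Rad21*.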

How the data were processed

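Chromium 3′ libraries of 2 neurosphere cultures were analysed. The labels give version 2 of the kit and the paper's methods give another version. The authors quantified spliced counts with Alevin (Salmon 1.3.0 in the submitters' notes) on GRCm38, dropped cells with outlying UMI totals, gene numbers, mitochondrial content or doublet scores, and left out mitochondrial genes and those seen in few cells. No further filter on cells and no doublet caller was applied here. The expression values deposited by the authors are a linear signal normalized per cell. The total UMIs per cell, deposited too, are sums of estimated counts, and the position and the stages are other values per cell.

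Most values, multiplied by total UMIs over their mean, were near a whole number times a factor of the cell and a factor of the gene in that culture. Over 1874 genes 84.9% of nonzero values under 5.5 came out whole within 0.1. For the cohesin genes the share was lowest for *Smc3* (59.5%) and *Smc1a* (60.9%) in culture 1, and highest for *Wapl* (98.8%) in culture 2, so levels with this factor removed are estimates. The origin of the gene factor is not given in the sources used here, and 32.2% of these genes had factors that differed over 1.2 times between the cultures. The factor cancels in ratios of mean values between classes of 1 culture. No count model was used, because too few values came out whole, and cells were not thinned for that reason.

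Symbols were found for 10662 of 10666 genes. Values were read as log2(value + 1). R² was fitted in each culture on 2 harmonics of position with numpy 2.4.6 in Python 3.11.15, and loess lines of degree 2 and span 0.3 on tripled data in R 4.3.3. Shares of cells have exact 95% binomial intervals. The cohesin genes, the lists, the tests and the rules for named genes (all 10 genes, the accessory genes that passed with up to 3 of the next highest, of which 1 is not reported here, the 5 most alike genes per varying gene, and the extremes of condensin and MCM) were chosen with earlier results of these data known. The harmonic fit and the estimate of the gene factors were first checked on simulated data with known answers, and the loess lines were not. The alternatives left out each culture, or changed the pseudocount, the position, the scaling of cells, the depth term, the filter on low genes, the threshold, the number of harmonics and the span. Those chosen after seeing the data were a depth band, cells without *Dcx*, *Pdgfra* and *Sox10*, removal of the gene factor, and a span of 0.1.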

Additional observations from a re-analysis of the deposited data

How the results depend on the processing

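The count of 5 cohesin genes was found in each culture alone, with other pseudocounts, without cohesin genes in the position and with rescaled cells. It was also found with depth in the fit, with 1 or 3 harmonics, with a filter on low genes and in the depth band. The count was 5 too without cells with nonzero *Dcx*, *Pdgfra* or *Sox10*. It was 8 at a threshold of 0.02, where all genes gave 890, and 8 with values scaled by total UMIs, where all genes gave 588. At a threshold of 0.1 it was 4, *Smc3* no longer passing at 0.0957, with 6 accessory genes and 240 of all genes. Without either culture the counts were 5 of cohesin, 11 of the accessory list and 454 to 597 of all genes. The log2 ratio of *Stag1* to *Stag2*, with a mean of -0.63, ranged from -0.70 to -0.55 without either culture, and no alternative changed its sign. No paired analysis was possible because there is 1 group.

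The classes between 1.25π and 1.75π hold the fewest cells. Culture 2 had fewer UMIs per cell, and its R² was the lower one for each of the 5 varying genes. Line maxima moved by up to 0.157π with the span and by up to 0.0775π under the other alternatives.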
